A study of Mus musculus with 4 samples.

Results

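The Ly6 and uPAR genes followed across the arrays were Ly6d, Lypd3, Psca, Ly6a, Ly6e, Ly6c1, Lypd6, Lypd6b and Plaur, 9 in all. They were selected on earlier results of these same arrays, so their ratios between genotypes are given as a description. Members were the non-control probes whose gene name in the scanner files is 1 of these 9 names, which gave 11 probes for 9 genes of the 24357 named genes on the array. All 9 were among the 18161 genes tested, and all 11 probes were well above background in both genotypes on 4 arrays.

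RNA came from whole ureters dissected from NMRI mouse embryos at E18.5, shortly before birth. The mutant, ΔNp63-cKO (cKO below), carried Pax2-cre/+ and was Trp63(dN-flox/dN-flox). The control was Trp63(dN-flox/?), with 1 floxed allele and a second allele that the labels do not state, and no cre is listed for it. Both groups therefore carried the floxed allele for ΔNp63, the p63 isoform that keeps basal cells of stratified epithelia. Pax2-cre recombines in derivatives of the nephric duct, and the labels do not say which ureter cells lost the allele. Each of 4 arrays of 2 colours carried 1 cKO RNA and 1 control RNA, giving 8 RNAs in 3 female pairs and 1 male pair (array 2), with the cKO in red on arrays 1 and 3 and in green on arrays 2 and 4. The labels do not tell if the RNAs were of separate embryos, so all p-values speak of array-to-array spread alone, which may be partly technical.

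Proteins of this family share a small fold of finger-like loops held together by cysteine pairs, called the LU domain. Most are tethered to the outer cell membrane by a glycosylphosphatidylinositol (GPI) anchor, and a few are secreted. They serve as receptors, adhesion proteins and modulators of other receptors, and several are used as surface markers: Ly6a (Sca-1) for stem and progenitor cells, Ly6c1 for endothelial and myeloid cells, Ly6d for epithelial and lymphoid subsets and Psca for the urothelium and the prostate. Plaur encodes uPAR, the receptor that holds the protease urokinase at the cell surface.

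The 60-base array probes are the sequences behind the signals. The last cysteines of the LU domain read Cys-Cys, 4 other residues, Cys-Asn, and the codons of that stretch were searched for in the probes on the strand given. Psca was the only member whose probe spans it, and the probes of Ly6k and Ly6g, from the same chromosome, are set beside it with the matching stretch in capitals. For Ly6d and Lypd3, the members with the largest differences between genotypes, the last 30 bases of the probe are given, all in lower case because the pattern is not in them.
Psca: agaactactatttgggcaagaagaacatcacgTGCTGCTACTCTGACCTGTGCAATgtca
Ly6k: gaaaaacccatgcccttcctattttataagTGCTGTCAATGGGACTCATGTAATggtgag
Ly6g: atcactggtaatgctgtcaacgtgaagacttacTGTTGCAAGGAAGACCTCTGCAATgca
Ly6d: catggaagatgggggacagacatgcttcca
Lypd3: ccttaggagactgtgaacaactctacaaca
The pattern was found in 5 of 46 Ly6/uPAR probes (10.9%) and in 8 of all 39429 probes (0.0203%). In mm9 the Psca probe lies at chr15:74546879-74546938 on the plus strand and the Ly6d probe at chr15:74592551-74592610 on the minus strand. The Ly6k probe lies at chr15:74627529-74627588 on the minus strand and the Ly6g probe at chr15:74989023-74989082 on the plus strand. The Lypd3 probe lies at chr7:25425989-25426048 on the plus strand. Between a member's probe and the probe of another family gene, the longest run of identical bases was 12 of 60, over 438 pairs. Probes were not compared with transcripts, so signal shared between the closely related Ly6a, Ly6c1, Ly6g and Ly6i, or with Ly6c2, which no probe is named for, cannot be told apart here.

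Ratios below are log2 of cKO over control, from background-corrected and loess-normalised signals. Levels are log2 signals of 1 probe that were also quantile-normalised between arrays (Aquantile), and they are compared between RNAs, never between genes. Raw signals are mean intensities before any correction. Whether genotypes overlap between arrays can depend on the normalisation, and the share of all genes without overlap was not computed. Trp63, the targeted gene, had a ratio of -2.18 ± 0.50 (SD, n = 4, limma adjusted p = 0.00207), with -2.86, -1.68, -2.03 and -2.13 on arrays 1 to 4. The files do not place the floxed part, so this probe does not check the deletion. Over 16 alternatives in processing or in the arrays used, the Trp63 ratio ran from -2.38 to -1.38 and passed in all 16. Over all 18161 genes the median ratio was 0.002, and the 5th and 95th percentiles were -0.40 and 0.28.

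Ly6d and Lypd3 had the lowest ratios of the 9 members. A mean ratio below 0 was found in 8 of the 9, against 8957 of 18161 over all genes. Among the 8, Lypd6 was at -0.02, and its second probe was at 0.08. The median of the members was -0.31, against 0.002 over all genes. At the threshold used for all genes, a limma adjusted p under 0.05, 4 members were lower in the cKO (Ly6d, Lypd3, Psca and Ly6a), where 5.63% of all genes were. One was higher (Plaur), where 2.92% of all genes were, and 4 did not pass. Without array 1, 3 or 4 the count of lower members was 2, and the count of higher ones was 0 whichever array was left out. The members were chosen on this contrast, so these counts are no test of them, nothing is read from them, and no p-value of the contrast is given for a single member.

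**Figure D1:**
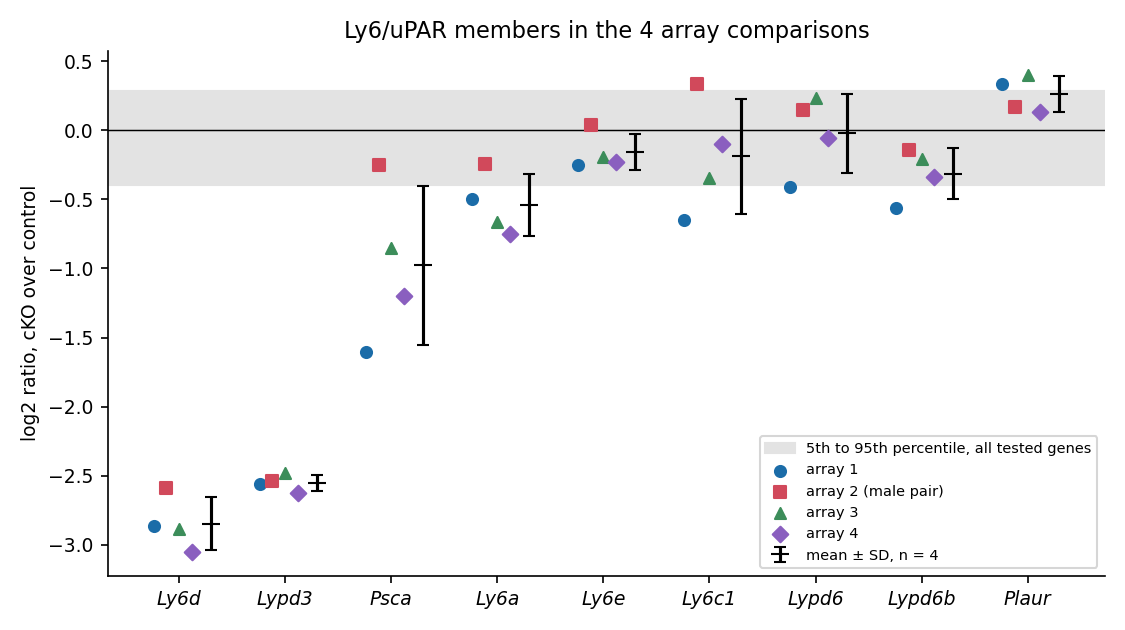
Log2 ratio of cKO over control for the 9 members (vertical axis), with 1 marker for each of the 4 arrays and the mean ± SD beside them in black. The grey band covers the 5th to 95th percentile of the 18161 tested genes (-0.40 to 0.28); Ly6d and Lypd3 lie far below it on every array, and the array 2 square lies highest for Ly6d, Psca, Ly6a, Ly6e, Ly6c1 and Lypd6b.

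Ly6d is a small GPI-anchored protein of stratified epithelia and of early lymphoid cells. Its level in control ureters was 15.72, 15.57, 15.69 and 15.75 on arrays 1 to 4, and in the cKO 12.86, 12.98, 12.81 and 12.70. Every cKO RNA lay below every control RNA. The ratios were -2.86, -2.59, -2.89 and -3.05, with a mean of -2.85 ± 0.19 (SD, n = 4), a 7.2-fold lower signal. It was the fourth lowest ratio of the 18161 genes. In RNA of a whole ureter, fewer cells that express a gene and less of its RNA per cell cannot be told apart.

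Lypd3, also known as C4.4A, is a GPI-anchored adhesion protein with a pair of LU domains, found on basal and suprabasal cells of squamous epithelia. Control levels were 12.63, 12.73, 12.85 and 12.55, and cKO levels 10.07, 10.18, 10.36 and 9.92. The genotypes did not overlap. The ratios were -2.56, -2.54, -2.48 and -2.62, with a mean of -2.55 ± 0.06, a 5.86-fold lower signal and the smallest spread among the members. Basal cell markers were lower in the same RNAs: 13 of 15 tested basal urothelial genes fell, against 5.63% of all genes, and 1 rose, with a list median of -2.18 ± 0.16 (SD of the per-array medians). The list includes Trp63, the targeted gene, which is among those that fell and whose own ratio is the list median. Whether Ly6d and Lypd3 differed beyond the basal list was not tested.

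Psca, prostate stem cell antigen, is a GPI-anchored protein made in the urothelium. Control levels were close together at 15.68, 15.64, 15.80 and 15.76. The cKO levels were spread out, at 14.08, 15.39, 14.95 and 14.56. Every cKO RNA still lay below every control RNA at these normalised levels, but the male cKO of array 2 lay only 0.25 below its control. In raw signals the genotypes overlapped, at 37214.9 to 68886.7 in controls and 15261.9 to 42605.3 in the cKO. The ratios were -1.61, -0.25, -0.85 and -1.20, with a mean of -0.98 ± 0.57, a 1.97-fold lower signal. Without array 4 the mean was -0.74 and without array 2 it was -1.21.

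Superficial urothelial genes varied over the arrays in the same order as Psca. The per-array medians of 12 tested superficial genes were -0.91, -0.04, -0.25 and -0.49, again deepest on array 1 and nearest to 0 on array 2. Over the list, 1 gene fell, 0 rose and 11 did not pass, and the median was -0.45 ± 0.37. The count that fell was 2 without array 2 and 4 without array 3. At an unadjusted limma p under 0.05, 8 of the 12 were lower and 0 were higher, a share that was not computed for all genes. Of the 12 ratios 10 were below 0, against 8957 of 18161 over all genes. The gene that fell was Krt7, a keratin of simple and urothelial epithelia (-1.22 ± 0.35, limma adjusted p = 0.00548). Upk1a, a uroplakin of the apical plaque, had a ratio of -0.67 ± 0.45 (adjusted p = 0.0503). The part of the superficial cells in the Psca difference was not tested.

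Ly6a, the surface protein Sca-1, was measured at 12.79, 12.85, 12.94 and 12.80 in controls and at 12.30, 12.60, 12.27 and 12.05 in the cKO. The genotypes did not overlap at these normalised levels, although the distance was small in the male pair. Raw signals did overlap, at 5325.3 to 8883.6 in controls and 4071.1 to 5956.1 in the cKO. The ratios were -0.50, -0.24, -0.66 and -0.75, with a mean of -0.54 ± 0.22, a 1.45-fold lower signal. Ly6a is expressed in endothelium, mesenchyme and hematopoietic cells and is raised by interferon.

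Ly6e, an interferon-induced protein known for blocking the entry of several viruses, had ratios of -0.25, 0.04, -0.19 and -0.23, with a mean of -0.16 ± 0.13. Control levels ran from 13.74 to 13.99 and cKO levels from 13.49 to 13.99, so the genotypes overlapped. Ly6c1, a marker of endothelial and myeloid cells, had ratios of -0.65, 0.33, -0.34 and -0.10, with a mean of -0.19 ± 0.41. Its levels overlapped as well, at 14.18 to 14.55 in controls and 13.90 to 14.51 in the cKO. A second Ly6c1 probe, at chr15:74877785-74877844, gave -0.50, 0.35, -0.16 and -0.03 and a mean of -0.08 ± 0.35. Both Ly6c1 probes were thus lower in the cKO on 3 arrays and higher in the male pair.

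Lypd6 and Lypd6b encode GPI-anchored modulators, Lypd6 of the Wnt coreceptor Lrp6 and both of nicotinic acetylcholine receptors. Lypd6b had control levels of 11.03, 11.12, 11.10 and 11.11 and cKO levels of 10.47, 10.98, 10.89 and 10.77, which did not overlap. Raw signals of Lypd6b did overlap, at 1648.1 to 2591.3 in controls and 1237.3 to 2195.5 in the cKO. Its ratios were -0.56, -0.14, -0.21 and -0.34, with a mean of -0.31 ± 0.19. Lypd6 had ratios of -0.41, 0.15, 0.23 and -0.06, with a mean of -0.02 ± 0.28, and a second probe at chr2:50044269-50044328 gave 0.08 ± 0.28. The levels of Lypd6 overlapped fully, at 12.15 to 12.62 in controls and 12.21 to 12.53 in the cKO.

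Plaur, the urokinase receptor, was the member with a mean ratio above 0. Control levels were 11.51, 12.08, 11.92 and 11.87 and cKO levels 11.84, 12.25, 12.32 and 12.01. The genotypes overlapped between arrays, but the cKO was higher within each of the 4 pairs. The ratios were 0.34, 0.17, 0.40 and 0.13, with a mean of 0.26 ± 0.13, a 1.2-fold higher signal.

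**Figure D2:**
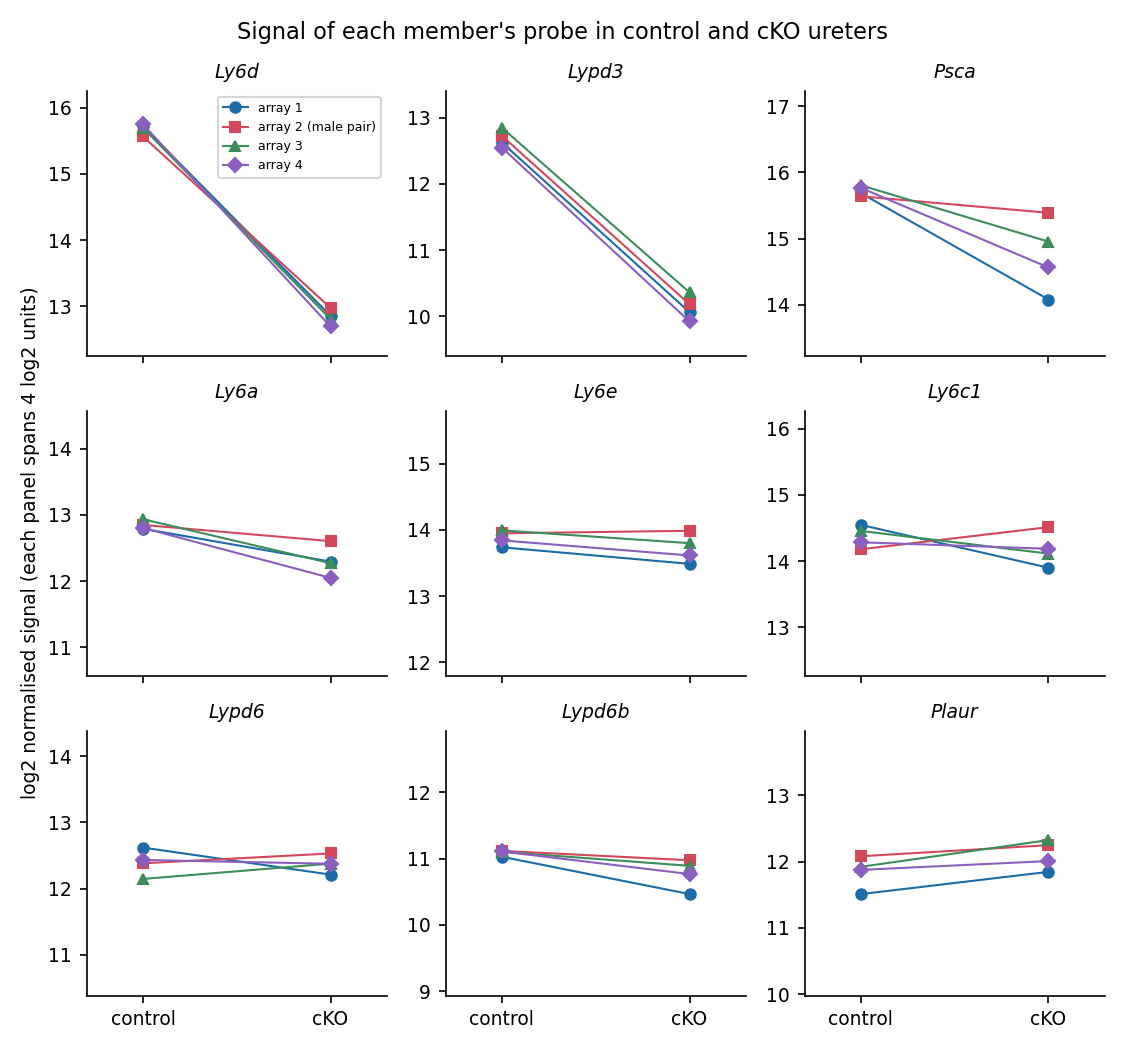
Log2 normalised signal (vertical axis, each panel spanning 4 log2 units) of each member's probe in the control and the cKO RNA, with a line joining the RNAs of 1 array. The lines of Ly6d and Lypd3 all run steeply down, those of Psca fan out in the cKO from 14.08 to 15.39, and some of those of Ly6c1 and Lypd6 run up.

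The ratio of the male pair, array 2, was the highest of the arrays for Ly6d, Psca, Ly6a, Ly6e, Ly6c1 and Lypd6b. It was not the highest for Lypd3, Lypd6 and Plaur. A further limma coefficient for the male pair was fitted beside the dye term. With that term it equals array 2 minus array 4, so its reference is the female pair of array 4 alone. The coefficient was largest for Psca (0.95), Ly6a (0.51) and Ly6d (0.46), and lay between 0.03 (Plaur) and 0.43 (Ly6c1) for the other members. Array 4 held the lowest ratio of Ly6d (-3.05) and of Ly6a (-0.75). Over all genes 0 of 18161 passed at an adjusted p under 0.05 (0%), and 861 did at an unadjusted p under 0.05. With 1 male pair, sex and array cannot be told apart. Trp63 itself was reduced least on array 2 (-1.68).

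By the root mean square of the differences in ratio over the 4 arrays, the genes nearest to Ly6d outside the family were Krt5 (0.0786), Mir205hg (0.169), Dnmt3l (0.211), Anxa8 (0.216) and Hr (0.229). Krt5 is the keratin that defines basal cells, and its ratios were -2.88, -2.72, -2.86 and -2.97. Nearest to Lypd3 were Krt15 (0.118), a second basal keratin, then Pkp1 (0.146), a desmosomal plakophilin, Duoxa1 (0.157), Anxa8 (0.186) and Hr (0.193). Nearest to Psca were Grhl1 (0.114), a transcription factor of surface epithelia, Fxyd3 (0.165), Sprr2f (0.175), Apoc1 (0.197) and Trex2 (0.206). Grhl1 had ratios of -1.48, -0.23, -0.79 and -1.02, the same order over the arrays as Psca. The likeness is over 4 arrays of 1 contrast, and genes with a similar mean are near by construction.

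Beyond the 9 members, 33 further genes of the family were listed, of which 30 had a probe and 23 were tested. Of these 4 rose in the cKO, against 2.92% of all genes, and 17 did not pass. The remaining 2, Pinlyp and Acrv1, were lower at the threshold but entered the test through the control signal alone; with both genotypes required above background, 0 fell. Without arrays 1 to 4 in turn, 6, 2, 2 and 2 rose. Their median ratio was 0.08, against 0.002 over all genes. The list was written with earlier results of these arrays known, so its counts are a description.

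Lypd8, a secreted and anchored protein that keeps flagellated bacteria off the colon epithelium, rose 4.27-fold (2.09 ± 0.45, limma adjusted p = 0.00275). Control levels were 7.91, 8.90, 8.39 and 8.41 and cKO levels 9.70, 11.07, 11.09 and 10.14. No control RNA reached the lowest cKO RNA. Its ratio was the tenth highest of the 18161 genes, and it passed whichever array was left out.

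Ly6g, the surface marker of neutrophils, rose 1.85-fold (0.89 ± 0.44, adjusted p = 0.0407). Its ratios were 0.39, 1.15, 1.34 and 0.67, and the levels did not overlap, at 11.21 to 11.52 in controls and 11.74 to 12.55 in the cKO. Raw signals did overlap, at 1981.6 to 3305 in controls and 2861.8 to 7053.1 in the cKO. Without array 2, 3 or 4 the adjusted p was 0.116, 0.0592 or 0.0786, and the call ended in 8 of 16 alternatives in all. Of 17 tested leukocyte markers 0 passed (limma), 1 had an unadjusted p under 0.05, and their median was -0.06. That list holds general, macrophage and lymphoid markers and none particular to neutrophils, so neutrophils were not examined apart. A neighbouring gene, BC025446, picked after its values were seen, had ratios of 0.45, 1.39, 1.46 and 0.82, the same order over the arrays as Ly6g. Signal shared by the Ly6g and BC025446 probes was not checked, so the likeness is not a separate measurement of Ly6g.

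Lypd2, a GPI-anchored protein of epithelia, rose 1.74-fold (0.80 ± 0.16, adjusted p = 0.00392), with ratios of 0.62, 0.74, 0.83 and 0.99. Slurp1, a secreted peptide of keratinocytes that modulates nicotinic receptors, rose 1.41-fold (0.49 ± 0.21, adjusted p = 0.0253). Slurp1 was dim, at 7.15 in controls and 7.65 in the cKO on average, and its adjusted p was 0.0704, 0.0597 or 0.105 without array 2, 3 or 4. Levels of both genes overlapped between arrays, while every pair was higher in the cKO.

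For Pinlyp and Acrv1 the control signal was well above background on 4 arrays and the cKO signal on none. Having passed the filter only where they were high, they had to differ, and no p-value is given. Their folds are limits, at least 1.22-fold lower for Pinlyp and at least 1.14-fold lower for Acrv1, computed against the lowest signal counted as above background on each array.

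Among the genes that did not pass, the largest negative ratio was that of Ly6k, at -0.53 ± 0.54 (adjusted p = 0.153), where array 1 gave -1.31 and the other arrays -0.12, -0.26 and -0.44. It was -0.80 without array 3 and then passed (adjusted p = 0.0208), and -0.27 without array 1 (adjusted p = 0.266). Ly6g6e and Ly6g6d, neighbours on chromosome 17, had ratios of 0.55 ± 0.51 and 0.50 ± 0.35 (adjusted p = 0.178 and 0.104). Both were near 0 on array 1 (-0.02 and 0.03), and without it they were 0.85 and 0.71 and passed (adjusted p = 0.0186 and 0.0147). Without array 3 they were 0.25 and 0.29 (adjusted p = 0.242 and 0.112). The complement regulators Cd59a and Cd59b had ratios of -0.02 each, and Gpihbp1, the endothelial anchor of lipoprotein lipase, one of 0.12 ± 0.08. The other 11 of these genes lay between -0.14 (Pate2) and 0.21 (Ly6g6c). Lypd10, a family gene that was not on the list and was picked after its values were seen, had a ratio of -0.77 ± 0.60 (limma adjusted p = 0.0444, and 0.0955, 0.0604 and 0.153 without array 1, 2 and 4).

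**Figure D3:**
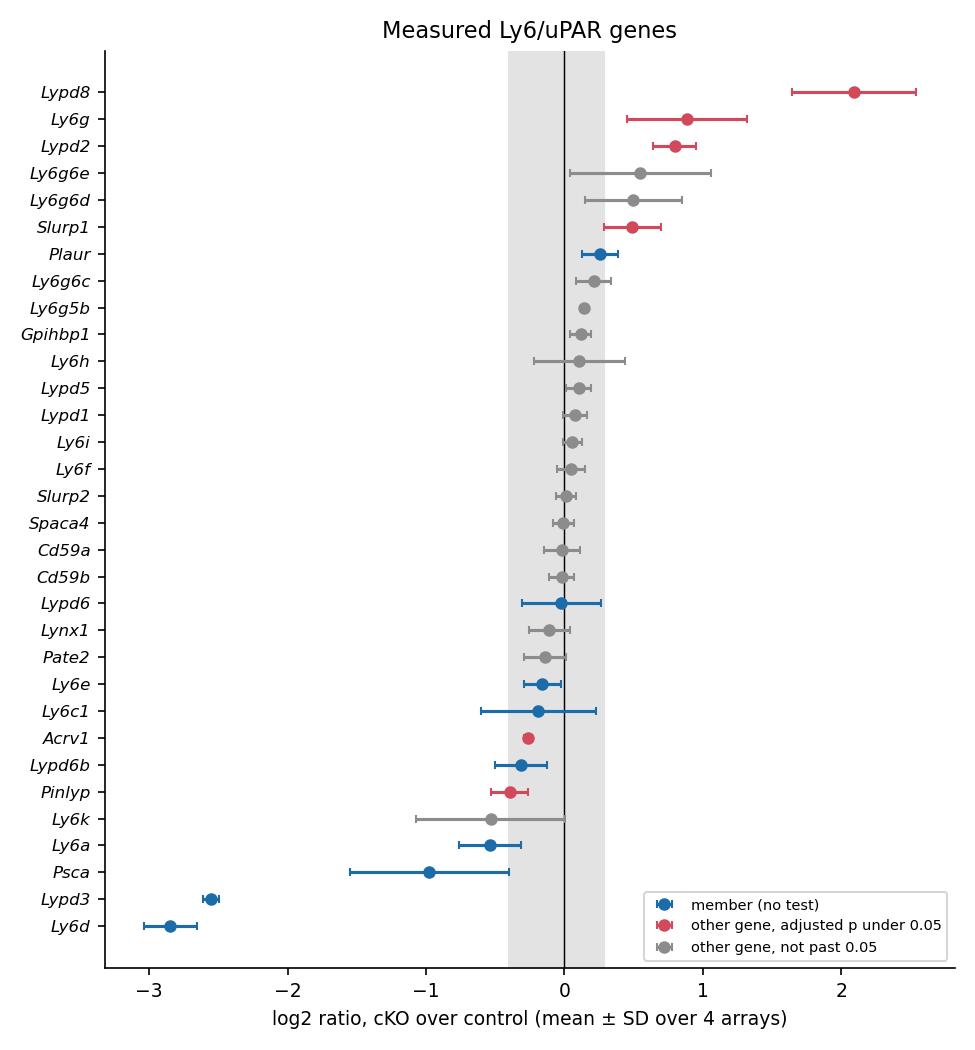
Mean log2 ratio of cKO over control (horizontal axis) with its SD over 4 arrays for the 9 members and the 23 other tested genes of the family, sorted by ratio; the grey band covers the 5th to 95th percentile of all tested genes. Lypd8 (2.09) and Ly6d (-2.85) mark the ends, and most genes lie within the band.

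Genes of the family lie side by side in the genome, and neighbours differed in sign. On chromosome 15, 18 genes with a probe lie from Psca to Ly6c1, and the probes of Psca and Ly6d are 45.7 kb apart. Between them lie Slurp1 and Lypd2, the genes that rose, at 10.2 and 15.8 kb from the Psca probe. Between them also lie Them6 (-0.15 ± 0.13, adjusted p = 0.258), Slurp2 (0.01 ± 0.07, adjusted p = 0.916) and Lynx1 (-0.11 ± 0.15, adjusted p = 0.352), a nicotinic receptor modulator. Ly6k follows at 80.7 kb, and Cyp11b1, an enzyme of adrenal steroid synthesis, at 118.5 kb with a ratio of 0.94 ± 0.62. Control RNA was well above background for Cyp11b1 on 1 of 4 arrays, so it entered the test through the cKO alone. The stretch from Ly6e to Ly6c1, 242.7 to 328.6 kb from the Psca probe, held ratios between -0.54 (Ly6a) and 0.06 (Ly6i).

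**Figure D4:**
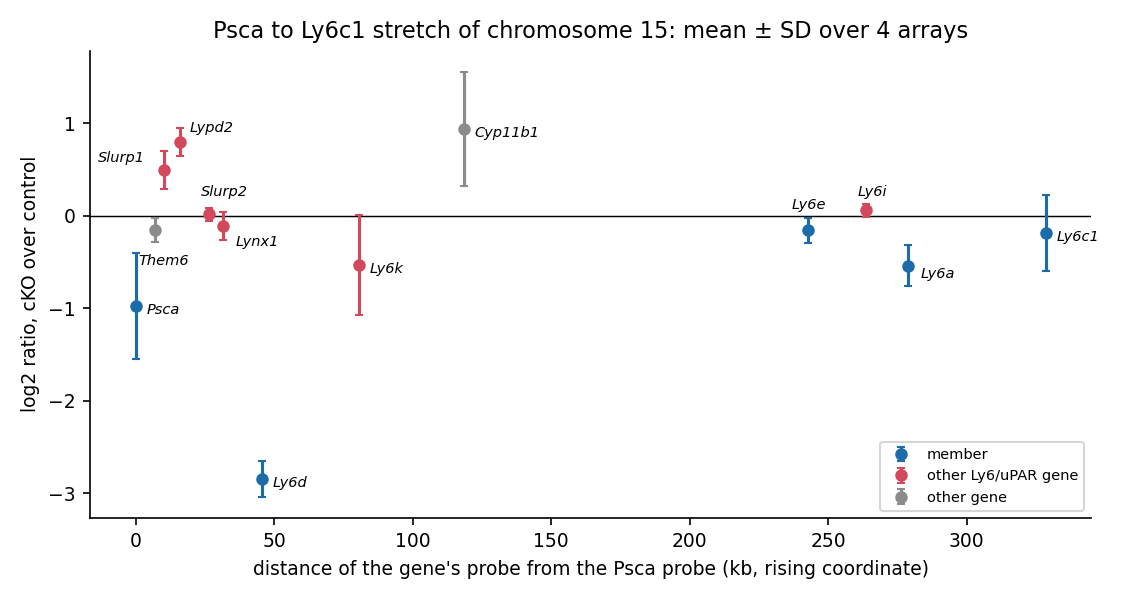
Mean log2 ratio of cKO over control with its SD over 4 arrays (vertical axis) against the distance of each tested gene's probe from the Psca probe in kb (horizontal axis), for the stretch of chromosome 15 from Psca to Ly6c1. Lypd2 (0.80) and Slurp1 (0.49) lie above 0 between Psca (-0.98) and Ly6d (-2.85).

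Plaur and Lypd3 lie at the ends of a stretch of chromosome 7, and their ratios had opposite signs (0.26 and -2.55). Of 7 tested genes between them, Phldb3, the neighbour of Lypd3, fell (-0.79 ± 0.19, limma adjusted p = 0.00781), Pinlyp had a limit only, and 5 did not pass, with ratios from -0.06 (Irgq) to 0.20 (Ethe1). On chromosome 2 no other gene with a probe lies between Lypd6b and Lypd6.

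The promoters of Lypd3 and Plaur are shown because these linked members differed in sign. Promoter sequences in RefSeq (GRCm38.p6) were matched for 4 of the 9 members (Lypd3, Plaur, Lypd6 and Ly6c1). The 250 bases before the start are printed, both genes on the plus strand, for Lypd3 at chr7:24636320-24636569 and for Plaur at chr7:24462233-24462482. Both strands were searched. Capitals mark the GC box GGGCGG and the AP-1 motif TGANTCA.
Lypd3: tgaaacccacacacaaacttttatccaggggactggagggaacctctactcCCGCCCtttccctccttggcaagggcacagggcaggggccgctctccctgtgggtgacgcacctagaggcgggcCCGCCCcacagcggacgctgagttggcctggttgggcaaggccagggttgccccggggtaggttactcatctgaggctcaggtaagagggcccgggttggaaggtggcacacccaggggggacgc
Plaur: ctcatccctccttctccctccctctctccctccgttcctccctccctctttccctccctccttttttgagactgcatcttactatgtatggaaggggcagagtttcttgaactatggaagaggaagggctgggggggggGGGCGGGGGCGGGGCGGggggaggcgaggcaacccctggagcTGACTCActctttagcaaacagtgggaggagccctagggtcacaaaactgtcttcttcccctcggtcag
The Plaur window holds the AP-1 motif once, starting 69 bases before the start, and 3 GC boxes in a row, partly overlapping. The Lypd3 window holds 2 GC boxes and no AP-1 motif. Of 32851 promoter windows of this length, 6.75% hold the AP-1 motif and 32.7% the GC box. The p53 family half-site, present in 7.13% of windows, was not found in the windows of these 4 members. A match is a description of the letters only.

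Partner genes of the members were taken from lists. In the urokinase system, 1 of 13 tested genes rose, 0 fell and 12 did not pass (limma), with a median of 0.01, and 0, 2, 0 and 2 rose without arrays 1 to 4 in turn. Vtn, vitronectin, the matrix ligand of uPAR that the liver secretes into plasma, rose (0.69 ± 0.36, adjusted p = 0.0479), with ratios of 0.60, 1.21, 0.60 and 0.35. Plau, urokinase, had a ratio of -0.36 ± 0.25 (adjusted p = 0.121). Hepatocyte genes were higher in the same RNAs: 5 of 12 rose, 0 fell, the list median was 1.62 ± 0.96, and the per-array medians were 2.23, 2.61, 1.32 and 0.47. The count that rose was 1 without array 1, 0 without array 3 and 9 without array 4. Their part in the Vtn ratio was not tested. The Vtn call ended without array 1 (0.161) or array 3 (0.138).

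Of 11 tested genes around the Wnt coreceptor that Lypd6 binds, 2 rose, 2 fell and 7 did not pass, with a median of -0.01. Axin2, a Wnt target, rose (0.78 ± 0.30, limma adjusted p = 0.00948), as did Dkk1, a secreted Wnt antagonist (0.79 ± 0.40, adjusted p = 0.0184, and 0.0735 and 0.0711 without array 1 and 3). Ctnnb1, β-catenin, fell by 0.26 (± 0.08, adjusted p = 0.0478) and Kremen1, a Dkk1 receptor, by 0.27 (± 0.11, adjusted p = 0.0484). The calls of Ctnnb1 and Kremen1 ended whichever array was left out. Lrp6 itself had a ratio of -0.01 ± 0.23 (adjusted p = 0.957). Of 8 tested nicotinic receptor subunits 0 passed (limma), 0 had an unadjusted p under 0.05, and their ratios ran from -0.05 (Chrna2) to 0.13 (Chrna4).

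Lypd3 binds the secreted proteins Agr2 and Agr3 and is linked to integrin β4 and the protease Mmp14. Of these 5 listed partners 2 were lower at the threshold, 0 rose and 3 did not pass. Itgb4, the integrin subunit of hemidesmosomes, which is also on the basal list, fell 5.27-fold (-2.40 ± 0.34, limma adjusted p = 0.0011). Agr3, the other gene counted as lower, had a ratio of -0.79 ± 0.10; its cKO signal was well above background on 3 of 4 arrays, so it entered the test through the control alone. Agr2 had a ratio of -0.04 ± 0.48 and Itga6 one of 0.18 ± 0.24 (adjusted p = 0.929 and 0.355).

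Genes that build, attach or cleave the GPI anchor gave 2 that fell, 1 that rose and 23 that did not pass, of 26 tested. Their median was -0.08, and 21 of the 26 ratios were below 0, against 8957 of 18161 over all genes. At an unadjusted limma p under 0.05, 10 were lower and 1 was higher, a share that was not computed for all genes. Gpld1, a phospholipase that cleaves GPI anchors, fell by 0.59 (± 0.08, limma adjusted p = 0.00506), and Pigh, a subunit of the first enzyme of anchor synthesis, by 0.42 (± 0.13, adjusted p = 0.0163, and 0.0812, 0.0504 and 0.0736 without array 1, 3 and 4). Pigz, a mannosyltransferase, rose (0.32 ± 0.21, adjusted p = 0.0498), a call that ended whichever array was left out.

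Interferon-induced genes were examined because Ly6a, Ly6e and Ly6c1 respond to interferon. Of 20 tested, 5 fell, against 5.63% of all genes, 0 rose and 15 did not pass, with a median of -0.21 ± 0.15. Usp18, which dampens interferon signalling, fell 2.09-fold (-1.06 ± 0.13, limma adjusted p = 0.00164). Ifih1 and Ddx58, sensors of viral RNA, fell by 0.67 and 0.40 (adjusted p = 0.0204 and 0.0254), and Ifit3 fell by 0.41 (adjusted p = 0.0427), a call that ended without array 1, 3 or 4 (0.171, 0.0909 and 0.131). The fifth was Cxcl10 (-0.31 ± 0.10, adjusted p = 0.0448). Of these 5 genes only Usp18 passed without array 1. In the list 7 genes fell without array 2, 2 fell and 1 rose without array 3, and 2 fell without array 4. Per-array medians were -0.26, 0.01, -0.26 and -0.33, nearest to 0 on array 2, as for Ly6a and Ly6e. Ly6c1 was at 0.33 on array 2 and was nearest to 0 on array 4 (-0.10). Array 2 was also nearest to 0 for Trp63, Ly6d, Psca, Lypd6b and the superficial list. The part of interferon in the ratios of Ly6a, Ly6e and Ly6c1 was not tested.

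Endothelial and mesenchymal cells also carry Ly6a, and endothelial cells Ly6c1, so their markers were examined. In the endothelial list 16 of 16 ratios were above 0, with a median of 0.21 ± 0.12; 1 rose, Sox17 (0.41 ± 0.19, limma adjusted p = 0.0497), a call that ended without array 1, 3 or 4 (0.194, 0.112 and 0.134), and 15 did not pass. Over all genes 9204 of 18161 ratios were above 0. With Sox17 counted, 11 of 16 endothelial genes had an unadjusted p under 0.05. In the mesenchyme and fibroblast list 1 of 12 rose, Car3, a carbonic anhydrase (0.84 ± 0.18, adjusted p = 0.00255), and the median was 0.11. Of 10 smooth muscle genes 0 passed (limma), 4 had an unadjusted p under 0.05, 1 passed without array 2, and the median was 0.15. The share of all genes at an unadjusted p under 0.05 in this contrast was not computed.

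An intestinal-type list was checked because Lypd8 is known in the colon epithelium, and a kidney list was checked beside it. Of 11 tested intestinal-type genes 4 rose, 2 fell and 5 did not pass, with a median of 0.07, and 1 fell whichever array was left out. Fabp1, a fatty acid-binding protein of gut and liver, rose 5.56-fold (2.48 ± 0.46, limma adjusted p = 0.000155). Its ratios were 1.98, 2.91, 2.18 and 2.83. Phgr1, a protein of the gut epithelium, had ratios of 1.26, 2.10, 2.52 and 2.10, and control RNA was well above background for it on 1 of 4 arrays, so it entered the test through the cKO alone, as did Tff3 (3 of 4 arrays). Guca2a, guanylin, fell by 1.04 (± 0.20, adjusted p = 0.00275), and Cdx1, an intestinal transcription factor, had a ratio of -0.03 (adjusted p = 0.813). Of 8 tested kidney genes 3 rose, against 2.92% of all genes, and 1 fell, against 5.63%. The list median was -0.06 ± 0.42, and 5 of the 8 ratios were below 0, against 8957 of 18161 over all genes. Cubn, an endocytic receptor of the proximal tubule, was at 2.27 ± 0.52 (limma adjusted p = 0.0031). Aqp3, a water channel, was at -0.80 ± 0.29 (adjusted p = 0.0198, and 0.0814 without array 4). Without array 2, 4 of the kidney genes fell. The part of other tissue in the Lypd8 ratio was not tested.

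**Figure D5:**
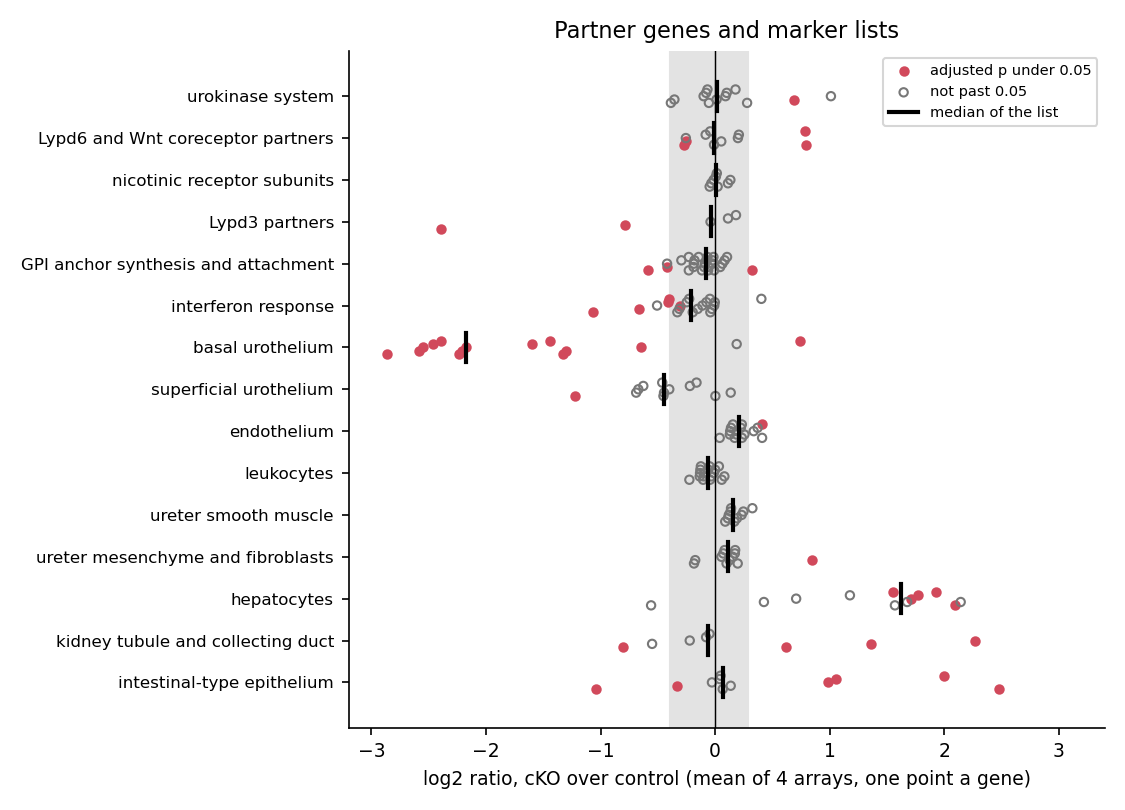
Log2 ratio of cKO over control (horizontal axis, mean of 4 arrays) of each tested gene in the lists of partner genes and cell markers, filled where the limma adjusted p was under 0.05, with the list median as a black bar and the 5th to 95th percentile of all genes in grey. The basal urothelial median lies at -2.18 and the hepatocyte median at 1.62, while the urokinase, Wnt coreceptor, nicotinic and GPI lists have medians between -0.08 and 0.01.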

How the data were processed

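Spot intensities of both channels, on a linear scale, and a log10 ratio of red to green were deposited; per the submitters' processing notes, Agilent Feature Extraction 10.7.3.1 was used. The deposited value table holds log2 ratios, and its direction was found by setting it against the scanner values. Mean intensities were corrected with normexp (offset 50), normalised by loess within each array and expressed as log2 of cKO to control, and the spots of a probe were averaged. Levels and the fits of separate channels used a further Aquantile normalisation between arrays, and the main ratios did not. A gene was tested if a probe was well above background on 4 arrays in at least 1 genotype, and its brightest probe stood for it. Symbols were updated through RefSeq genes (GRCm38.p6, names only), and probe positions are those of the files (mm9). Ratios were fitted with limma 3.58.1 in R 4.3.3 with the dye as a term and adjusted by Benjamini-Hochberg over 18161 genes. Median intensities per channel were 460.3 to 607.3. The 4 arrays limit the precision. The SD given is over the 4 arrays and includes the dye difference, while the p-values rest on the spread within a dye orientation and on the prior.

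The members, gene lists and rule for named genes were chosen with earlier results of these data known. The rule took the members, Trp63, every other tested family gene, up to 4 called genes of each other list by p (or 2 bright ones where none was called), tested genes between linked members, and the 5 nearest genes of Ly6d, Lypd3 and Psca. Other listed genes named beside these, such as receptors and ligands of a member, were added after their values were seen. The fit was checked on simulated data.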

Additional observations from a re-analysis of the deposited data

Results flagged for a closer look

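On array 1 the ratio of Cd59a, a complement regulator, was -0.21, away from 0.06, 0.04 and 0.04 on the other arrays. It was the 1 case among 80 genes examined in which the gap exceeded Dixon's 95% critical value for 4 samples, a value that chance passes in about 1 in 20 groups. Ly6e had a ratio of 0.038 in the male pair and of -0.25, -0.19 and -0.23 in the female pairs. Ly6c1 had a ratio of 0.33 in the male pair and of -0.65, -0.34 and -0.10 in the female pairs. Both have opposite signs in the male pair and the female pairs. For both genes the model coefficient for the male pair did not pass (limma adjusted p = 0.968), and with 1 male pair it does not separate sex from array.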

How the results depend on the processing

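The counts and 80 named genes were recomputed under up to 12 other ways of processing and without each array, and the male coefficient with processed signals and with the deposited table. Upk1a, Cxcl10, Lypd10 and BC025446 were recomputed only without each array, and other genes named after their values were seen were not. The median of the members stayed between -0.40 and -0.23, and the mean ratios of Ly6d and Lypd3 between -2.96 and -2.53. Of the 9 members, Lypd6 changed sign, in 3 alternatives. The count of members lower in the cKO (4) was 2 with Agilent's processed signals, 2 with the deposited value table, 2 in a fit of separate channels without the array block, and 2 to 4 with an array left out. Psca and Ly6a were the members that left it, Psca also without the filter on dim probes (3 members), and Lypd6b joined in separate channels with the array block (5 members). Plaur was lost (0 members higher) with processed signals, with the deposited table, with median centring in place of loess, without the dye term, in both fits of separate channels (0 and 0), and with any array left out (0 to 0). Other family genes that fell (2) numbered 0 with the deposited table, 1 with median centring, 0 when both genotypes had to be above background, 0 in separate channels without the block, and 0 to 2 with an array left out (0 without array 1 or 4, 1 without array 2 or 3). Those that rose (4) numbered 2 with the deposited table (Ly6g among those lost, as also with processed signals, scaling between arrays and no filter on dim probes), 1 in separate channels without the block, and 2 to 6 with an array left out. Listed partner and marker genes that fell (27) numbered 16 in separate channels without the block, and those that rose (19) numbered 12 with processed signals, 7 with the deposited table, 10 without the filter on dim probes, 5 in separate channels without the block, and 11 to 21 with an array left out. Signs turned for ratios near 0: Cd59a was 0.014 with the deposited table, and Spaca4 was 0.024 with processed signals and 0.014 with the deposited table. With an array left out, Cd59a ranged from -0.080 to 0.046 (without array 1), Spaca4 from -0.052 to 0.039 (without array 1), Cd59b from -0.053 to 0.014 (without array 1), Ly6h from -0.0089 (without array 4) to 0.22, Slurp2 from -0.028 (without array 4) to 0.058, and Cadm4 from -0.029 (without array 4) to 0.14. The cause of these changes was not tested, beyond the smaller number of arrays. Dim probes carry an exact 0 in the deposited table, as Acrv1 did on 4 arrays. The genes whose cKO or control signal was not above background have limits only.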
